A study of Mus musculus with 3 samples.

Results

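DNA replication licensing and synthesis genes encode the proteins that load the replicative helicase onto origins, open the fork, copy both strands and supply nucleotides. The set held 46 genes, chosen by name from the gene symbols of the array, among 36609 genes read in all. A gene with several probes was read from the one well above background on most arrays, ties going to the brightest. Spleen cells from male MRL/MpJ animals, 6 months old, were cultured in RPMI1640 and measured after 3 h on 3 arrays, 1 for each condition. One condition was PBS, one was urine from MRL/MpJ donors, and one was urine from donors of the MRL/MpJ-Faslpr/lpr strain (called lpr urine), in which Fas is not functional and a lupus-like disease develops. All the spleen cells were MRL/MpJ with an intact Fas gene, so that the lpr allele was carried by urine donors and not by the cells measured. The urine of each strain was a pool from 6 male donors aged 6 months, passed through a 0.22 µm filter, and red cells of the spleen had been lysed. The protocols describe 1 spleen in one place and spleens in another, and leave out how much urine was added to the medium.

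In a resting cell most of these genes are quiet. In G1 the origin recognition complex (Orc1 to Orc6), Cdc6 and Cdt1 load the Mcm2 to Mcm7 helicase onto DNA, which is called licensing, and geminin (Gmnn) blocks Cdt1 afterwards. Cyclin E and E2F1 drive S phase entry, Cdc45 and the GINS proteins activate the helicase, and polymerases, the sliding clamp PCNA, ligase and nucleotide enzymes make the new strands. Spleen is mostly resting B and T cells, with a small dividing part.

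The level of a gene was its log2 processed signal minus the log2 of the 75th percentile of its array, a percentile of 158 intensity units for PBS, 86.6 for MRL/MpJ urine and 75.7 for lpr urine. Processed signal is spot brightness after background subtraction within an array. A log2 difference is one level minus another, and a gene was counted as higher or lower when the scanner software called it well above background on each array compared and the levels were at least 2-fold apart. With 1 array per condition there is no replicate check, no p-value and no error across samples, and no difference below can be assigned to the urine rather than to the well or the array. Repeated spots of 1 probe on the same array would give a difference a median SD of 0.37 at log2 signals below 5, 0.12 at 5 to 8 and 0.05 above, which leaves out all variation between arrays. Both urine comparisons share the PBS array.

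Of the 46 genes, 45 were well above background on all 3 arrays. Ccne2, which encodes the second cyclin E, was well above background on none, at 2.48, 3.50 and 2.22 intensity units in the order PBS, MRL/MpJ urine and lpr urine. All signals below are in that order, and paired differences from PBS are given for MRL/MpJ urine first and lpr urine second. All 9 B cell markers and the 8 T cell markers found on the array by symbol were well above background on all 3 arrays. On an array of a whole culture, fewer cells of a type and less RNA per cell cannot be told apart.

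The sequences that matter most are those of the probes that read Orc1 and Cdc45, because the largest differences of the set rest on them and because probes of the same gene did not give the same size. The Orc1 probe with the brightest signal (probe A, chr4:108278369-108278428, mm9, plus strand) was designed on an Ensembl transcript of the gene, while a second one (probe B, chr4:108284772-108285679, mm9, plus strand) was designed on the RefSeq mRNA and spans a splice junction, since its 60 bases cover a longer stretch of genome. The Cdc45 probes are probe A (chr16:18807449-18807508, mm9, minus strand) and probe B, which also spans a junction (chr16:18793399-18794880, mm9, minus strand). All are given 5′ to 3′ from the deposited files.
Orc1 probe A: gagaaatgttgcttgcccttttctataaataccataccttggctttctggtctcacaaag
Orc1 probe B: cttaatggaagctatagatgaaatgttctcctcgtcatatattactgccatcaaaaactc
Cdc45 probe A: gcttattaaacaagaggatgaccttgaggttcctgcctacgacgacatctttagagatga
Cdc45 probe B: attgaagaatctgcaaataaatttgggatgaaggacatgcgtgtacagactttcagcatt

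The replication genes had a median close to 0 with either urine, while single steps of the process differed in opposite directions. With MRL/MpJ urine, 5 of 45 members (11.1%) were at least 2-fold higher, namely Orc1, Cdc45, Rrm2, Ccne1 and Cdc6, against 16.9% of all 19639 genes measured on both arrays. Another 5 (11.1%) were at least 2-fold lower, namely Cdt1, Mcm6, Fen1, Mcm7 and Pola2, against 11.1% of all genes. The shares of members are near or below the background, so the counts say nothing particular about the set. Their median log2 difference was 0.06, beside 0.13 for all genes, and 35 members stayed within 2-fold.

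With lpr urine the same 10 members passed 2-fold in the same directions. Again 5 of 45 were higher, against 18.5% of 19370 genes, and 5 were lower, against 12% of them. The median was -0.01, beside 0.15 for all genes.

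The counts depend on the scale. Spike-in scaling, which uses synthetic transcripts added in fixed amounts, shifted every difference by -0.90 for MRL/MpJ urine and by -0.99 for lpr urine. It left 2 members higher in each comparison, beside 5.61% and 5.60% of all genes, and put 21 and 22 of 45 lower, beside 40.8% and 44% of all genes, whose medians fell to -0.78 and -0.84. Scaling by the array median gave 5 higher in each comparison, beside 10.6% and 11.1% of all genes, and 11 and 10 lower, beside 21% and 22.1%. The members' counts thus moved with those of all genes. Orc1 and Cdc45 stayed at least 2-fold higher, and Cdt1, Mcm6, Mcm7 and Fen1 at least 2-fold lower, under both of these scalings and with normexp background correction, in both comparisons. Ccne1, Rrm2, Cdc6 and Pola2 kept their direction throughout on their chosen probes. Ccne1 and Rrm2 came within 2-fold under spike-in scaling, Pola2 with normexp, and Cdc6 under both.

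**Figure D1:**
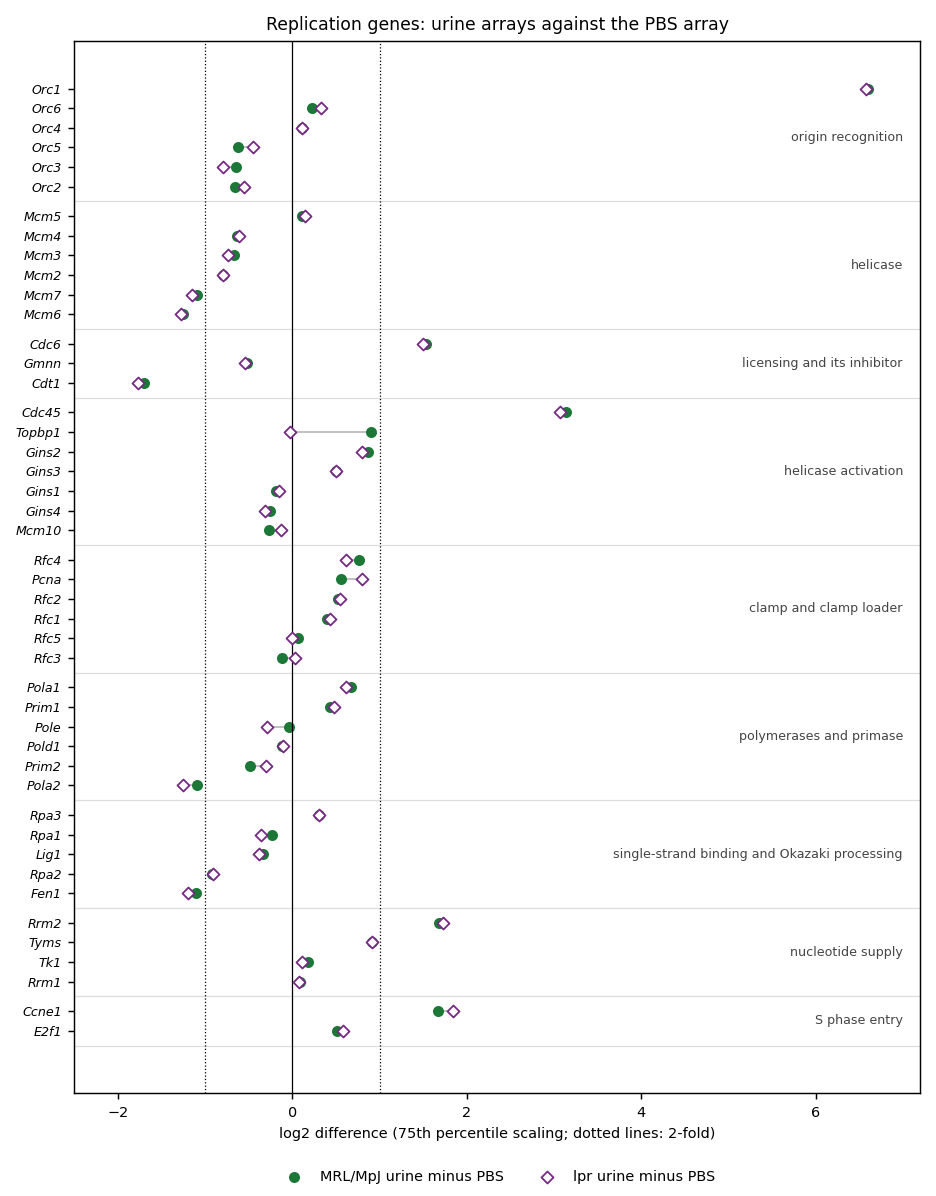
Log2 difference from PBS (x axis, 75th percentile scaling) of the 45 measured replication genes, grouped by role on the y axis. Filled circles are MRL/MpJ urine, open diamonds lpr urine, each from 1 array, and dotted lines mark 2-fold. Orc1 stands far to the right at 6.60 and 6.57, Cdt1 furthest to the left at -1.70 and -1.77, and Topbp1 shows the widest gap between the urines.

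Among the origin recognition genes Orc1 differed from the others. Its protein is an ATPase subunit that is made and destroyed with the cell cycle, whereas the other subunits are largely constant. Orc1 read 16.2 intensity units with PBS, 862 after MRL/MpJ urine and 739.9 after lpr urine. It was low on the PBS array alone, and was 96.9-fold higher with MRL/MpJ urine and 95.2-fold higher after lpr urine. After normexp background correction the differences were 4.40 and 4.30, so the size depends on the background correction. The probe at chr4:108287350-108287409 (mm9), on the RefSeq mRNA, read 8.51, 59.5 and 67.9 intensity units, which are differences of 3.67 and 4.05, or 1.44 and 1.65 after normexp correction. Probe B, shown above, was not well above background with PBS (2.14). It read 22.7 and 17.6 with the urines, at least 9.22-fold and 8.18-fold higher in processed signal. After normexp correction its log2 differences were 1.04 and 1.05. So all 3 probes were higher with both urines, and they disagreed in size.

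On their chosen probes the other 5 origin recognition genes stayed within 2-fold. Orc2 read 241, 84.1 and 78.8 intensity units, with differences of -0.66 and -0.56, and Orc3 read 1159, 408 and 320.2, with differences of -0.64 and -0.80. Orc5 differed by -0.62 and -0.45. Orc4 (0.11 in both comparisons on its chosen probe) and Orc6 (0.23 and 0.33) lay close to the median of all genes. All other Orc4 probes were lower than the chosen one. Those measured on all arrays ranged from -0.42 to 0.004 with MRL/MpJ urine and from -0.47 to -0.24 with lpr urine. For Orc3 and Orc4, a dim probe on an Ensembl transcript was lower than the chosen one. That Orc3 probe at chr4:34546292-34546351 (mm9) differed by -1.15 and -1.58, and the Orc4 probe at chr2:48767079-48767138 (mm9) by -1.17 with MRL/MpJ urine. After normexp correction the Orc3 probe came to 0.06 and 0.09, and the Orc4 probe to 0.17 with MRL/MpJ urine. With lpr urine that Orc4 probe was no longer well above background.

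Of the 6 helicase genes, Mcm6 and Mcm7 were at least 2-fold lower in both comparisons, and 4 stayed within 2-fold, beside 11.1% and 12% of all genes lower. Their median was -0.73 with MRL/MpJ urine and -0.77 after lpr urine, and 5 of the 6 lay below 0. Mcm6 read 4302, 995 and 856 intensity units, 2.38-fold and 2.41-fold lower after scaling. Mcm7 read 1768, 454 and 382, 2.14-fold and 2.23-fold lower. For both, the PBS array was high and the urine arrays were close to each other, and a second probe of each differed in the same direction (-1.51 and -0.99 for Mcm6, -1.26 and -1.20 for Mcm7). Those second probes read 42.3 and 37.2 intensity units with PBS and came to -0.01 and 0.04 with MRL/MpJ urine after normexp correction.

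The remaining subunits of the ring were within 2-fold. Mcm2 read 734, 233 and 203 intensity units (-0.79 and -0.80). Mcm4 read 1402, 497 and 439.7 (-0.63 and -0.62). Mcm5 was the exception among them, at 561, 333 and 298, with differences of 0.11 and 0.14. Mcm3 was read by 4 probes that ranged from -0.67 to -0.40 with MRL/MpJ urine and from -0.74 to -0.45 with lpr urine, so that its probes had 1 direction. Under spike-in scaling the median of the 6 genes was -1.64 and -1.76.

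The loading factors went apart. Cdt1, which brings the helicase to the origin, read 3265 intensity units with PBS, 554 after MRL/MpJ urine and 459 after lpr urine, which made it the lowest of the set at 3.24-fold and 3.42-fold lower. Cdc6, its partner in loading, read 16.2, 25.7 and 21.96, and was 2.88-fold and 2.81-fold higher. The second Cdc6 probe, on the same strand, was 1.18 and 1.81 higher on the log2 scale. Cdc6 was dim on every array, and its difference was 0.62 and 0.50 under spike-in scaling. Gmnn, the inhibitor of Cdt1, read 368, 141 and 121 intensity units (-0.52 and -0.55), and a second probe gave 0.02 and 0.03.

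Another probe filed under Gmnn reads the opposite strand (chr13:24854006-24854065, mm9, plus strand, against minus for the gene's other probes). It was not well above background with PBS (4.22 intensity units). With MRL/MpJ urine it read 57.1 and with lpr urine 50.5, at least 23.2-fold and 23.5-fold higher in processed signal. After normexp correction its log2 differences were 1.58 and 1.59, so the size depends on the background correction. This probe was singled out after its values were seen. It does not match the strand of the geminin mRNA, and is shown because a list made by symbol would take it for the gene.
Gmnn opposite-strand probe: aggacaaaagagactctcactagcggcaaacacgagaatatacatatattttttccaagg

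Helicase activation genes had medians of 0.50 and -0.02. The second median is the value of Topbp1 itself, and between the urines the median difference of the 7 genes was -0.06. Of the 7, 1 was at least 2-fold higher, Cdc45, beside 16.9% and 18.5% of all genes. Cdc45, which travels with the helicase, read 8.16 intensity units with PBS, 39.5 after MRL/MpJ urine and 33.0 after lpr urine on probe A, which is 8.81-fold and 8.41-fold higher. After normexp correction the log2 differences of probe A were 1.14 and 1.17. Probe B read 6.78, 5.55 and 6.17, with differences of 0.57 and 0.92. The 2 probes therefore placed Cdc45 on different sides of the 2-fold line, and probe B lay not far above the dimmest probes called well above background, 4.47 on the PBS array. Which of them follows the mRNA was not determined.

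The 4 GINS genes, whose products hold the helicase together with Cdc45, stayed within 2-fold on their chosen probes. Gins2 was the highest at 0.87 and 0.79, and read 39.3, 39.4 and 32.7 intensity units. A dimmer Gins2 probe gave 0.49 and 1.22, or 0.58 and 0.74 after normexp correction. Gins3 read 1659, 1291 and 1125 (0.50 in both). Gins1 differed by -0.19 and -0.16, and Gins4 by -0.26 and -0.32. A dimmer Gins1 probe lay above 0, at 0.60 and 0.51. Mcm10, which helps start synthesis, read 50.5, 23.0 and 22.3 (-0.27 and -0.13), but its probe on an Ensembl transcript (chr2:4920226-4920285, mm9) read 11.4, 30.8 and 33.2 and differed by 2.30 and 2.60. After normexp correction that Ensembl probe differed by 0.95 and 1.09, and the chosen probe by 0.12 and 0.24.

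Topbp1, a scaffold that activates the checkpoint kinase ATR and helps to load Cdc45, was the member with the widest gap between the urines. On its chosen probe (chr9:103252324-103252383, mm9) it read 446, 459 and 211 intensity units, so that it differed from PBS by 0.90 with MRL/MpJ urine and by -0.02 after lpr urine. The lpr array was lower than the MRL/MpJ urine array by 0.93. The other 3 probes measured on all arrays did not show a gap of that size: they differed between the urines by -0.31, -0.04 and -0.31. Against PBS these 3 spread from -1.33 to 0.70 with MRL/MpJ urine.

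**Figure D2:**
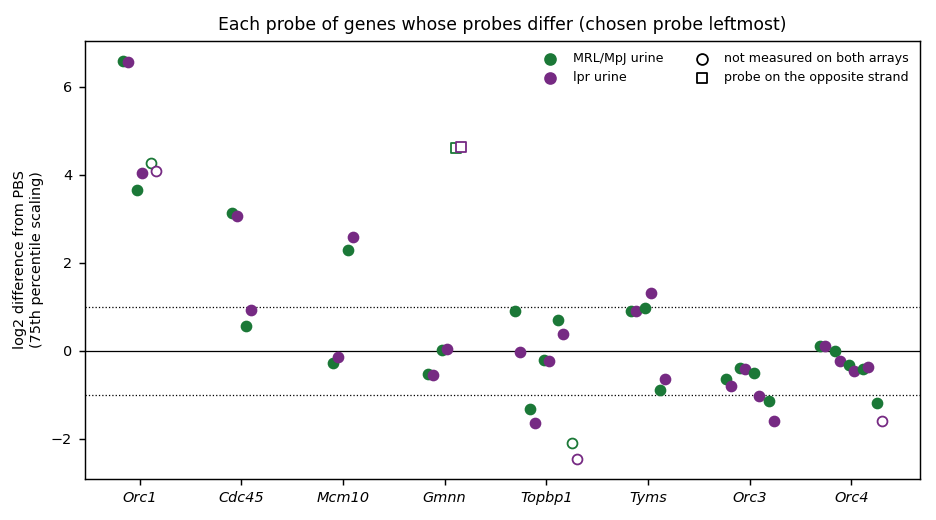
Log2 difference from PBS (y axis) for every probe of Orc1, Cdc45, Mcm10, Gmnn, Topbp1, Tyms, Orc3 and Orc4 (x axis), chosen probe leftmost, green for MRL/MpJ urine and purple for lpr urine. Open symbols are probes not well above background on both arrays and the square is the opposite-strand probe. All 3 Orc1 probes lie above 2-fold, while those of Cdc45 and Mcm10 lie on different sides of the 2-fold line and those of Tyms on different sides of 0.

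Probe disagreement was limited to part of the set. Of 26 members with several probes measured with MRL/MpJ urine, 6 had probes at least 1 apart on the log2 scale or on both sides of 0 with one past 2-fold, namely Cdc45, Mcm10, Orc1, Orc4, Topbp1 and Tyms. With lpr urine it was 6 of 27, with Orc3 in place of Orc4. The median range between probes of a gene was 0.41 and 0.45.

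All 6 clamp and clamp loader genes stayed within 2-fold, with medians of 0.46 and 0.49. Pcna, the sliding clamp that tethers polymerases to DNA, read 2371, 1912 and 1982 intensity units, with differences of 0.55 and 0.80. It was among the brightest members and lost less signal with urine than most. Rfc4 read 347, 323 and 255 (0.76 and 0.61), and its other 2 probes, at 1.10 and 0.94 with MRL/MpJ urine, were also above 0. Rfc2 read 1353, 1069 and 947 (0.52 and 0.54). Rfc1 differed by 0.40 and 0.43, whereas Rfc3 and Rfc5 lay within 0.13 of 0 in both comparisons. Under spike-in scaling all 6 were below 0, with medians of -0.44 and -0.50.

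Among polymerases and primase, Pola2 was lower and Pola1 was not, although their products are subunits of the same polymerase alpha that starts each fragment. Pola2 read 236, 60.96 and 47.6 intensity units, 2.13-fold and 2.38-fold lower, on a probe for an Ensembl transcript. The probe for its RefSeq mRNA differed by -0.85 and -0.95. That RefSeq probe read 29.8 with PBS and came to 0.17 and 0.24 after normexp correction. Pola1 read 85.3, 74.7 and 62.9, with differences of 0.67 and 0.62. On their chosen probes the primase subunits also differed, with Prim1 at 0.43 and 0.47 and Prim2 at -0.48 and -0.30. A second Prim2 probe, on an Ensembl transcript, lay above 0 like Prim1, at 0.12 and 0.18. Pold1, the catalytic subunit of the lagging-strand polymerase, read 951, 482 and 423 (-0.12 and -0.11), and Pole, that of the leading strand, read 189, 101 and 74.5 (-0.04 and -0.29).

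Of the genes that bind single strands or finish Okazaki fragments, Fen1 passed 2-fold. Fen1, the nuclease that trims primer flaps, read 843, 216 and 177 intensity units, 2.15-fold and 2.30-fold lower. Lig1, the ligase that seals the nick afterwards, read 692, 301 and 255 (-0.34 and -0.38). Rpa2 read 241, 69.7 and 61.7, just inside the 2-fold line at -0.93 and -0.91, while Rpa1 differed by -0.24 and -0.36 and Rpa3 by 0.31 in both. The 3 subunits of the single-strand binding complex thus lay on both sides of 0 on this scale. Rpa3 was at -0.06 and -0.08 when scaled by the array median, and at -0.60 and -0.68 under spike-in scaling. All 3 subunits were below 0 under those scalings.

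Nucleotide supply genes all lay above 0, with medians of 0.55 and 0.51, though the medians were below 0 under spike-in scaling (-0.36 and -0.48), where Rrm2 stayed above 0 at 0.78 and 0.74. Rrm2, the limiting subunit of ribonucleotide reductase, read 102 intensity units with PBS, 179 after MRL/MpJ urine and 162 after lpr urine, 3.21-fold and 3.32-fold higher. The 5 members counted as higher are the only measured ones that were brighter with both urines before any scaling. Rrm1, the other subunit, read 291, 169 and 147, with a difference of 0.08 in both. Tyms, which makes thymidylate, read 65.2, 67.6 and 59.1 (0.92 in both), and a second probe gave 0.97 and 1.31. Another Tyms probe, on an Ensembl transcript, was lower by 0.88 and 0.64 on the log2 scale. Tk1 differed by 0.18 and 0.10.

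Ccne1, the cyclin E that activates Cdk2 at the start of S phase, read 86.6 intensity units with PBS, 152 after MRL/MpJ urine and 149 after lpr urine. It was 3.18-fold and 3.58-fold higher, on the 1 probe that read it. E2f1, a transcription factor that switches on many of the genes above, read 52.5, 41.1 and 37.8, with differences of 0.51 and 0.58.

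**Figure D3:**
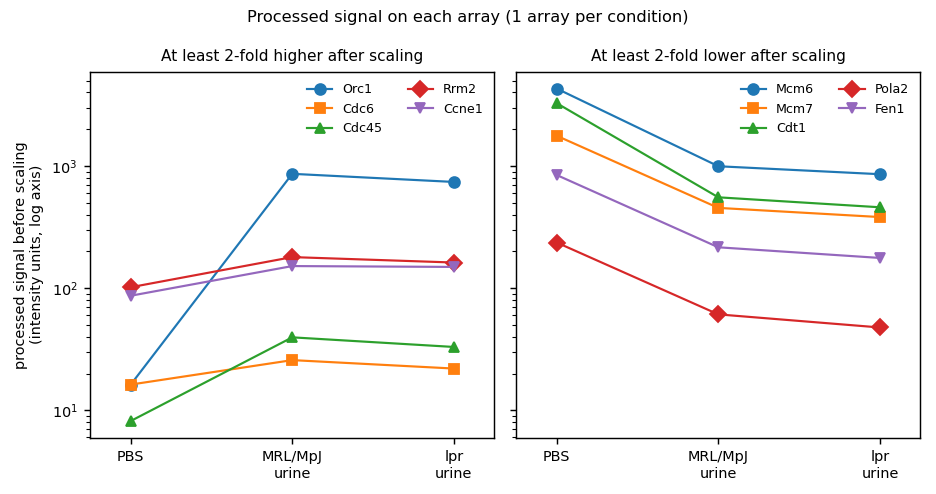
Processed signal before scaling (y axis, log scale, intensity units) on the 3 arrays (x axis) for the 5 genes that were at least 2-fold higher with both urines (left) and the 5 that were at least 2-fold lower (right). The left genes read 8.16 to 102 with PBS and the right genes 236 to 4302, and the urine arrays lie close to each other in all 10.

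The 5 members that were higher were dim on the PBS array and the 5 that were lower were bright. Over all genes the same held only as a tendency. Among members below the PBS array's 75th percentile, 5 of 12 were higher and 0 lower with MRL/MpJ urine. Of 9250 genes below it, 26.2% were higher and 6.74% lower. Among members at or above it, 0 of 33 were higher and 5 lower, against 8.60% and 15.0% of 10389 genes. The direction of these 10 members moved with brightness, and its part in the result was not tested.

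The urines did not differ from each other at 2-fold for any member. Of 45 members, 0 were at least 2-fold higher with lpr urine than with MRL/MpJ urine, against 0.34% of 20014 genes, and 0 were lower, against 0.06%. The median difference was -0.01, and 42 members lay within 0.2 of 0 on the log2 scale, beside 71.6% of all genes. Outside that range were Topbp1 at -0.93, Pole at -0.25 and Pcna at 0.25. With 1 array each, this does not show that the urines act alike.

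Promoters of the set were searched for the E2F motif because E2F1 and its relatives regulate replication genes. The 4 spellings TTTCGCGC, TTTGGCGC, TTTCCCGC and TTTGCCGC were matched on both strands in the 250 bases before the start in RefSeq entries (GRCm38.p6), and matches may overlap. Of 37 members with an entry, 10 (27%) held a match, as did 583 of 27025 genes (2.16%). Matches were found on both sides of the response: in Orc1 and Cdc6 among the 5 that were higher, and in Mcm6 and Mcm7 among the 5 that were lower. The promoters of Orc1 (chr4:108579204-108579453, plus strand), Mcm6 (chr1:128359706-128359955, minus strand) and Cdt1 (chr8:122567765-122568014, plus strand) are shown as those of the highest and the lowest members and of a lower one with several matches. Capitals mark the matches, and Cdt1 has none.
Orc1 promoter: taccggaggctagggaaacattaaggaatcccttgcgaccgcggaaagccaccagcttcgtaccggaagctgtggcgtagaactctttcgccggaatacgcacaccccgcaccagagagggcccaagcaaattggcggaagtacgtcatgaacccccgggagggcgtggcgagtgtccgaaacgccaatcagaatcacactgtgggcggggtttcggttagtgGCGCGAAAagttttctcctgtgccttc
Mcm6 promoter: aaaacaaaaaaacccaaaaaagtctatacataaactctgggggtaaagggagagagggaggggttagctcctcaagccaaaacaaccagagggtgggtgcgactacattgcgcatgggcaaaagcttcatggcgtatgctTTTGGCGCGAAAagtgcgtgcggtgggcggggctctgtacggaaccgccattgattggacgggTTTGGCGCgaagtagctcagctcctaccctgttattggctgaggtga
Cdt1 promoter: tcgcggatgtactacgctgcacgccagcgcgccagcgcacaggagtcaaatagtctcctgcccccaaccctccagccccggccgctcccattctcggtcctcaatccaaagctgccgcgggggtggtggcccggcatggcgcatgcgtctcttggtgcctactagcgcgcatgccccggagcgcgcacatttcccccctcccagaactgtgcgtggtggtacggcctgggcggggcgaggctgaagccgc
The Orc1 match begins at position -27 from the start, and those of Mcm6 at -110, -106 and -47, the first 2 overlapping. A match describes letters and not binding.

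Other genes of the fork and of nucleotide supply, 42 in all, had medians near 0. With MRL/MpJ urine 5 of 41 were at least 2-fold higher and 0 lower (median 0.03), beside 16.9% and 11.1% of all genes. With lpr urine 6 of 40 were higher and 0 lower (median 0.07), beside 18.5% and 12%. Under spike-in scaling 3 were higher and 17 lower after MRL/MpJ urine, beside 5.61% and 40.8% of all genes. After lpr urine 3 were higher and 19 lower, beside 5.6% and 44%. Slbp, which binds histone mRNA in S phase, read 577, 3883 and 2920 intensity units and was 12.2-fold and 10.5-fold higher, and all 4 of its probes were past 2-fold. Rnaseh2a, a nuclease that removes RNA from DNA, was 5.52-fold and 5.32-fold higher on its chosen probe, but its 5 probes ranged from 0.90 to 7.24 with MRL/MpJ urine. Top1, the topoisomerase that relieves twist ahead of the fork, was 4.16-fold and 4.07-fold higher on its chosen probe, with a lowest probe at -0.42. Asf1a, a histone chaperone, was 1.55 and 1.74 higher on the log2 scale, with a second probe within 2-fold at 0.74 and 0.48. Dtl, part of the ubiquitin ligase that degrades Cdt1 protein, was 1.38 and 1.57 higher, or 0.73 and 0.85 after normexp correction.

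Regulators of the G1/S step, 39 in all, held genes past 2-fold on both sides. With MRL/MpJ urine 4 of 37 were higher and 3 lower (median -0.21), beside 16.9% and 11.1% of all genes. With lpr urine 5 of 38 were higher and 3 lower (median -0.18), beside 18.5% and 12%. Spike-in scaling gave 2 higher and 19 lower after MRL/MpJ urine, beside 5.61% and 40.8% of all genes. It gave 1 higher and 22 lower after lpr urine, beside 5.6% and 44%. A pair of Cdk inhibitors lay at opposite ends on their chosen probes. Cdkn1c (p57) read 43.1, 283 and 245 intensity units and was 11.9-fold and 11.8-fold higher on its 1 probe. After normexp correction it was 2.42 and 2.35 higher on the log2 scale. Cdkn1b (p27) read 4356, 691 and 653 and was 3.47-fold and 3.20-fold lower. A second Cdkn1b probe was within 2-fold, at -0.78 and -0.67. Dbf4, the activator of the Cdc7 kinase that fires licensed origins, was 3.76-fold and 3.63-fold higher, with a second probe at 0.23 and 0.38. Cdk6 was 2.44-fold and 2.57-fold lower on probes with the same direction. Lin54, a subunit of the DREAM complex that represses cell cycle genes, was 2.31-fold and 2.07-fold lower, with its highest probe at -0.64 and -0.07. E2f2 was 1.16 higher with MRL/MpJ urine and 0.98 higher, just within 2-fold, with lpr urine. Ccnd1 was 1.02 and 1.06 higher. On their chosen probes Cdkn1a (p21) and E2f7 passed 2-fold with lpr urine alone, at 1.19 and 1.00. That difference between the urines was not tested. Another Cdkn1a probe was at 3.74 with lpr urine. After normexp correction the chosen probes of E2f2, Ccnd1, Cdkn1a, E2f7 and Lin54 were within 2-fold.

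Replication checkpoint genes, 14 in all, lay mostly below 0, with 2 of 13 at least 2-fold higher and 3 lower in each comparison and medians of -0.51 and -0.46, beside 16.9% and 18.5% of all genes higher and 11.1% and 12% lower. Under spike-in scaling 1 was higher and 9 lower after MRL/MpJ urine, beside 5.61% and 40.8% of all genes. After lpr urine 2 were higher and 11 lower, beside 5.6% and 44%. Chek1, the kinase that holds back origin firing under stress, read 9.85, 41.2 and 28.6 intensity units and was 7.61-fold and 6.03-fold higher, which shrank to 1.13 and 1.06 on the log2 scale after normexp correction. Wee1, which restrains mitosis, read 90.5, 9.53 and 6.73 and was 5.22-fold and 6.46-fold lower, and at -0.65 and -0.60 after normexp correction it was no longer 2-fold lower. Rad1 was 2.99-fold and 3.22-fold lower on its chosen probe, with another at 1.74 and 1.70. Brca2 was 3.56-fold and 4.21-fold higher, and Brca1 was 2.63-fold and 3.79-fold lower with a highest probe at 0.03 and -0.03. After normexp correction Brca1 was within 2-fold, at -0.33 and -0.35.

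Markers of dividing and other cells moved beside these results, and their part in them was not tested. Of all genes, 16.9% were at least 2-fold higher and 11.1% lower with MRL/MpJ urine, with a median of 0.13. With lpr urine it was 18.5% and 12%, with a median of 0.15. All 10 markers of cells in S, G2 or M phase were measured, with a summed processed signal of 1001, 1261 and 1213 intensity units. With MRL/MpJ urine 3 of them were at least 2-fold higher and 0 lower (median 0.46), led by Ccnb2 at 3.27, while Mki67, the proliferation marker, was at 0.62. With lpr urine it was also 3 higher and 0 lower, with a median of 0.46. B cell markers had 4 of 9 higher with MRL/MpJ urine (median 0.85) and 3 with lpr urine (median 0.84). T cell markers had 0 of 8 higher and 1 lower in both (medians 0.08 and 0.17). Erythroid markers had 1 of 8 higher in both (medians 0.66 and 0.73). Plasma cell markers had 4 of 5 higher in both (medians 1.22 and 1.199), and monocyte and macrophage markers 4 of 8 (medians 0.98 and 0.94). NK cell markers had 2 of 5 higher in both (medians 0.99 and 0.98), and neutrophil markers 2 of 7 (medians 0.76 and 0.90). Germinal centre B cell markers had 1 higher and 2 lower of 6 measured with MRL/MpJ urine (median 0.36) and of 4 measured with lpr urine (median -0.19). No defining marker of the dividing, B cell, T cell and erythroid lists was below background on any array. The medians of those 4 lists, in that order, were all below 0 under spike-in scaling with MRL/MpJ urine (-0.45, -0.05, -0.83 and -0.25). Those of the plasma cell, monocyte and NK cell lists were 0.32, 0.08 and 0.09, and those of the neutrophil and germinal centre lists -0.14 and -0.54. With lpr urine only the plasma cell median stayed above 0 under spike-in scaling (0.21). Those of the monocyte and NK cell lists were -0.05 and -0.01.

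**Figure D4:**
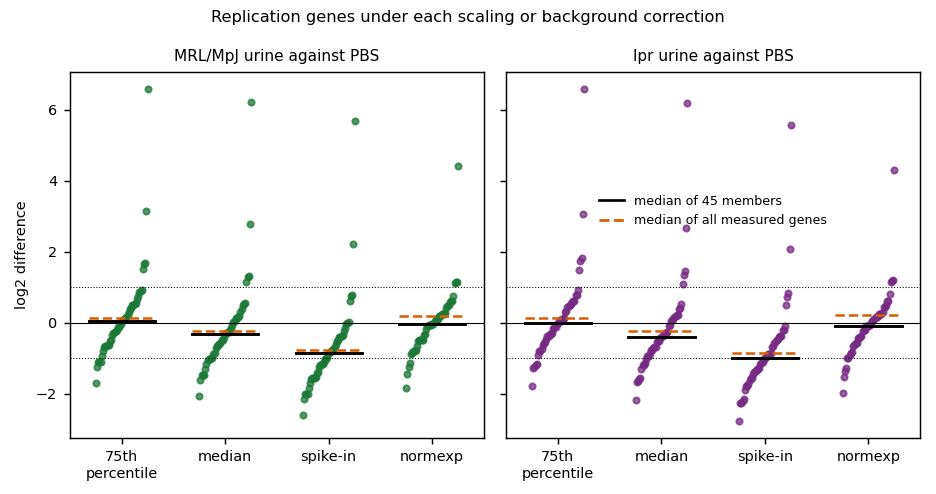
Log2 difference from PBS (y axis) of the 45 measured replication genes, 1 point each in order of size, under 4 ways of scaling or background correction (x axis), for MRL/MpJ urine (left) and lpr urine (right). Black lines are the members' medians and dashed lines those of all measured genes; the members' line lies below that of all genes under each of the 4 ways, and Orc1 is the top point throughout.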

How the data were processed

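Gene expression was measured on 3 single-colour (Cy3) Agilent arrays of design 074809, 1 per condition. Per the file headers and the submitters' processing notes, spots were read with Agilent Feature Extraction 12.0.3.1. Per the file headers, the deposited processed signal is an intensity that the authors' software had background-subtracted and detrended within each array, with no normalisation between arrays. Probe positions are on mm9.

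Flagged spots were removed, repeated spots averaged, and 56599 probes kept. Each gene was read from the probe well above background on most arrays, ties going to the brightest. Each log2 level had the 75th percentile of its own array subtracted. Where 1 array was not well above background, a bound was taken against the higher of its own signal and the dimmest probe on it that was well above background. No spot was saturated. Normexp correction used limma 3.58.1 (offset 50) on deposited mean and background intensity. The counting was tested on simulated data. A total of 7 alternatives were run.

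Members, lists and alternatives were chosen with earlier results of these data known. Named genes were all members, members whose probes disagree, and up to 5 highest and 5 lowest genes past 2-fold in each other list. Probe sequences were planned for probes whose translation matches a protein; no protein table was used here, so probes carrying the largest differences or an opposite strand were printed. All arrays share 1 slide, so slide gave no block.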

Additional observations from a re-analysis of the deposited data

Results flagged for a closer look

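A total of 3 replication genes differed from PBS in opposite directions with the 2 urines, and the difference between the urines was not tested, since there was 1 array of each. On its chosen probe Topbp1 was 0.90 with MRL/MpJ urine and -0.023 after lpr urine. The other 3 Topbp1 probes measured on all arrays each had 1 direction with both urines. Rfc3 was -0.12 and 0.031, and Rfc5 was 0.06 and -0.0078. The Rfc3 and Rfc5 values, and that of Topbp1 after lpr urine, are close to 0. They are near or below the repeated-spot SDs of 0.12 and 0.05, which leave out variation between arrays.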

How the results depend on the processing

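No replicate could be left out, as each condition had 1 array. No paired analysis was possible because each condition had a single array, so the shared replicate number 1 leaves no test to block. Under spike-in scaling, members at least 2-fold higher numbered 2 in each urine comparison, members lower numbered 21 and 22, and medians were -0.84 and -0.998; between the urines 1 member, Topbp1, was lower. Scaling by the array median put 11 and 10 members lower, with medians of -0.31 and -0.40. The stricter filter on dim probes kept 36 and 33 members and left 2 higher in each urine comparison, Rrm2 and Ccne1, since Orc1, Cdc45 and Cdc6 were too dim to enter. Taking the next best probe moved the lpr urine median to 0.14. Of the 10 members called in each urine comparison, all kept their direction under every alternative that gave them a value. At least 7 of the 10 stayed past 2-fold under each scaling, normexp and probe alternative. Signals near background limit the size of the differences of Orc1, Cdc45 and Cdc6. With no filter on dim probes Ccne2 entered at 1.36 and 0.90.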

Other observations

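Genes next to Orc1 and Cdc45, the members with the largest differences, stayed far below them in size. Prpf38a, which overlaps Orc1 in RefSeq, differed by -0.81 with MRL/MpJ urine and by -1.09 with lpr urine, and Cc2d1b, on the other side of Orc1, by 0.34 and 0.48. Ufd1, which overlaps Cdc45, differed by -0.78 and -0.64. BC005537, a neighbour of Gmnn, differed by 1.64 and 1.56, while Gmnn itself differed by -0.52 and -0.55. These neighbours were looked up after the values of the members were known.

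Among member probes measured on both arrays, the 68 designed on RefSeq mRNAs had a median of -0.06 with MRL/MpJ urine, with 6 at least 2-fold higher and 6 lower. The 15 on Ensembl transcripts had a median of -0.06, with 3 higher and 5 lower. With lpr urine the RefSeq probes had a median of -0.12, with 8 higher and 6 lower, and the Ensembl probes 0.11, with 2 higher and 5 lower.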
